A study of Mus musculus with 3 samples.

Results

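Hypoxia and glycolysis were followed through 10 genes in single leukocytes of the mouse aorta: *Hif1a*, *Slc2a1*, *Hk2*, *Pfkl*, *Pfkp*, *Aldoa*, *Gapdh*, *Pgk1*, *Pkm* and *Ldha*. The members were taken by gene symbol from the 32285 genes of the count matrix, and their unique molecular identifiers (UMIs, 1 for each captured transcript) were summed per mouse within each cell class. Over all macrophages, 8 of the 10 were higher in mice with aortic aneurysm than in mice with dilation, and over macrophage clusters 8 of the 10 were higher in Ccr2+ inflammatory macrophages than in resident macrophages. Over all genes tested, 7.5% and 12% were higher in these comparisons. Without mouse 9, 3 members passed between the macrophage clusters, and the share of all genes called in that fit is not given here. Mouse 9 gave 192 of the 474 inflammatory cells used, so a fit without it also has fewer cells. In the aneurysm comparison, leaving out mouse 9 leaves a single mouse with aneurysm. The inflammatory cells of mice 7 and 9, both with aneurysm, enter both comparisons, so the counts are not independent. Such cells made up 66.5% and 49.4% of macrophages there, but 7.69%, 2.38% and 7.26% in mice 6, 8 and 10 with dilation. Over all macrophages, more such cells and more RNA per cell cannot be told apart. Outside the inflammatory clusters, or within resident macrophages, no member tested passed between aneurysm and dilation. Within resident macrophages 0.0142% of the 7063 genes tested passed, so this does not set the members apart from other genes. The share outside the inflammatory clusters is not given here. *Slc2a1*, which encodes the glucose transporter GLUT1, had the largest log2 fold change among the members in both comparisons. Against resident macrophages, it passed the filter on low counts only through the inflammatory macrophages, where it was high. Between genotypes, no member passed the test in any of 6 cell classes, where 0% to 0.898% of all genes tested passed. Ccr2+ inflammatory macrophages were not among these classes.

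The mice were on a C57BL/6 background. Jak2WT mice (n = 5, mice 1 to 5) were controls, and Jak2V617F Myel mice (n = 5) carried a Flex allele of the Jak2V617F mutation switched on by Cre under the lysozyme M promoter (LysM-Cre), so that the mutation is expected mainly in myeloid cells and not in lymphocytes. The mutant mice were divided by what was seen at dissection into 3 mice with dilation and no aneurysm (mice 6, 8 and 10) and 2 mice with aneurysm (mice 7 and 9). Whether the controls carried the Cre transgene, and the age of these mice, are not given in the sources used here, and male and female mice were both used in the study. No treatment was given. Circulating leukocytes were stained by an antibody injected into the blood and sorted away, each aorta was stained with its own hashtag antibody, and the 10 aortas were pooled, sorted to about equal parts of both genotypes and run together by CITE-seq, which counts transcripts and antibody tags in the same cells.

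Cells that take up glucose break it down to pyruvate in a chain of cytosolic reactions, and pyruvate can be reduced to lactate when oxidative metabolism is limited or when flux is high. Hypoxia-inducible factor 1 (HIF-1) is a pair of proteins of which the alpha subunit is destroyed in the presence of oxygen. When oxygen falls, or when inflammatory signals raise its production, the alpha subunit accumulates, pairs with ARNT and binds short DNA elements near genes of glucose uptake, glycolysis and lactate production. Inflammatory macrophages are known for a high glycolytic rate, whereas many resident tissue macrophages rely more on oxidative metabolism. Since the alpha subunit is set mostly by protein decay, its transcript level is not a measure of its activity.

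Positions are given for mouse build GRCm38. *Hif1a* (ENSMUSG00000021109, chr12:73901375-73947530, plus strand) encodes the alpha subunit of HIF-1. *Slc2a1* (ENSMUSG00000028645, chr4:119108711-119137983, plus strand) carries glucose into the cell. *Hk2* (ENSMUSG00000000628, chr6:82725025-82774454, minus strand) encodes hexokinase 2, which traps glucose as glucose-6-phosphate. *Pfkl* (ENSMUSG00000020277, chr10:77986947-78010083, minus strand) and *Pfkp* (ENSMUSG00000021196, chr13:6579768-6648777, minus strand) encode the liver and platelet forms of phosphofructokinase, the committed step. *Aldoa* (ENSMUSG00000030695, chr7:126795234-126800751, minus strand) encodes aldolase A, which splits the sugar, and a further identifier with the same symbol had 0 counts. *Gapdh* (ENSMUSG00000057666, chr6:125161715-125166467, minus strand) and *Pgk1* (ENSMUSG00000062070, chrX:106187100-106203699, plus strand) encode the enzymes of the next steps, the latter of which yields ATP. *Pkm* (ENSMUSG00000032294, chr9:59656368-59679375, plus strand) encodes muscle pyruvate kinase, which makes pyruvate and ATP, and *Ldha* (ENSMUSG00000063229, chr7:46841475-46855627, plus strand) encodes lactate dehydrogenase A. All 10 are protein-coding genes. *Gapdh*, *Aldoa*, *Pgk1*, *Pkm* and *Ldha* have near-identical pseudogene copies in the mouse genome, so that some of their reads could have been lost as ambiguous in the authors' counting.

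The DNA core bound by HIF-1 is ACGTG or GCGTG. The sequences were taken from RefSeq (build GRCm38.p6) and searched on both strands over the 250 bases before each start site, where a match on the other strand reads CACGT or CACGC. At least 1 match lay before a start site of all 10 members, against 41.5% of 27025 genes. Those genes were not matched to the members for base composition, so no enrichment can be read from these shares. These motifs are short, and a match is a description of the letters and not a site of binding. The stretches below are shown because *Slc2a1*, *Hk2*, *Pgk1* and *Ldha* stand for uptake, trapping, ATP yield and lactate production in the comparisons that follow, and *Pfkl* is the member whose log2 fold change was nearest 0 in the inflammatory against resident and the all-macrophage aneurysm comparisons; capitals mark the matches, and overlapping matches on both strands run together as CACGTG. They lie at chr4:119108664-119108708 (plus strand, *Slc2a1*), chr6:82774482-82774700 (minus strand, *Hk2*), chrX:106186930-106186993 (plus strand, *Pgk1*), chr7:46845639-46845794 (plus strand, the first of the *Ldha* promoters) and chr10:78009890-78009918 (minus strand, *Pfkl*), and are written in the direction of the gene.
Slc2a1: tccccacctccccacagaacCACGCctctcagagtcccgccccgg
Hk2: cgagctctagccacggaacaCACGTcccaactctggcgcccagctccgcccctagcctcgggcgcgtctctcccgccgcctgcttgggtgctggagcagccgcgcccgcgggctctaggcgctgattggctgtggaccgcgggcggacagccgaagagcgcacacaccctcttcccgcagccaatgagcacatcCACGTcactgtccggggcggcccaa
Pgk1: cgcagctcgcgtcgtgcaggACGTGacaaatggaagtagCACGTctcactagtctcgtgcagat
Ldha: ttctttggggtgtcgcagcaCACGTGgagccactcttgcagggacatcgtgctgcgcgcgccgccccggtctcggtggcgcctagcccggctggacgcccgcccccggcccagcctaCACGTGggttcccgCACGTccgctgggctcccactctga
Pfkl: atttgtagactgGCGTGcgctccgccttt
The *Ldha* stretch held 5 matches counted on both strands, the *Hk2* and *Pgk1* stretches held 2 each, and the *Slc2a1* stretch held 1. *Slc2a1* has a further ACGTG at position -36 from the start, just past the end of the stretch printed, so its promoter window holds 2 as well. *Pfkl*, which did not pass the test in either macrophage comparison, had a match as well. The *Pfkl* and *Ldha* stretches lie before a RefSeq start site but inside the gene spans given above, which begin further upstream.

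After removal of barcodes with more than 1 hashtag (2265 of 8471) or none (349) and of cells with more than 10% mitochondrial UMIs, 4871 cells remained, with 112 to 811 cells and 1038443 to 9643994 UMIs per mouse. Cells were clustered with the members and 3 other lists of metabolic and hypoxia genes kept out, so that the members themselves did not set the classes. Other genes that vary together with the members could stay in, so the classes are not fully independent of them. The classes compared most were resident macrophages (612 cells), IEG+ macrophages (named for immediate early genes, 546), Ccr2+ inflammatory macrophages (490), conventional type 2 dendritic cells (cDC2, 392), B cells (560), T cells (410) and type 2 innate lymphoid cells (ILC2, 239). A cluster of 344 cells with little RNA, led by haemoglobin genes, was left out. *Lyve1*, a marker of resident vascular macrophages, had a mean of 2120 UMIs per 1000000 of the class sum (CPM) in resident macrophages and 90.0 in inflammatory macrophages, and *Cd79a*, a subunit of the B cell receptor, had 2450 in B cells. Some macrophage RNA was seen in lymphocytes: *C1qa*, a complement gene of macrophages, had 7050 CPM in resident macrophages, 117 in B cells, 93.8 in T cells and 91.2 in ILC2. Whether free RNA of the pool or more than 1 cell in a droplet gave this was not tested. *Jak2* itself ranged from 18.1 to 37.7 CPM in resident macrophages of Jak2WT mice and from 14.7 to 29.0 in those of Jak2V617F Myel mice, and 3′ counts do not read the mutated base, so the genotype could not be checked here.

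Across 20 cell classes, with the cells of a class pooled over mice, the mean of the members' z-scores (each gene's log2(CPM + 1), centred and scaled over the classes) was highest in neutrophils (0.66), proliferating cells (0.58), gamma delta T cells (0.55) and monocytes (0.52). It was lowest in IEG+ macrophages (-0.68), B cells with *Vcam1* (-0.61) and B cells (-0.60), followed by interferon-inducible macrophages (IFNIC, -0.52) and resident macrophages (-0.49). The cells named B cells with *Vcam1* also carried macrophage markers, with 13 of 13 detected and a mean marker z-score of 0.56, against -0.817 in B cells. Their median was 16734.5 UMIs per cell against 5388 in B cells, so this class has a mixed profile. Ccr2+ inflammatory macrophages (0.37) and cDC2 (0.33) lay in the upper part of this order, ILC2 at 0.21 and T cells at -0.23. These are values of pooled cells and carry no test, and the proliferating cells were also the class with the most UMIs per cell (median 22566). Platelets (-0.46) had the highest pooled *Aldoa* (672 CPM), *Gapdh* (2190), *Pgk1* (375) and *Pkm* (1210). They held 0 UMIs of *Hif1a*, *Slc2a1*, *Hk2*, *Pfkl* and *Pfkp* in a sum of only 50606 UMIs. Those zeros enter the scaling of these genes and so the order of the classes.

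**Figure D1:**
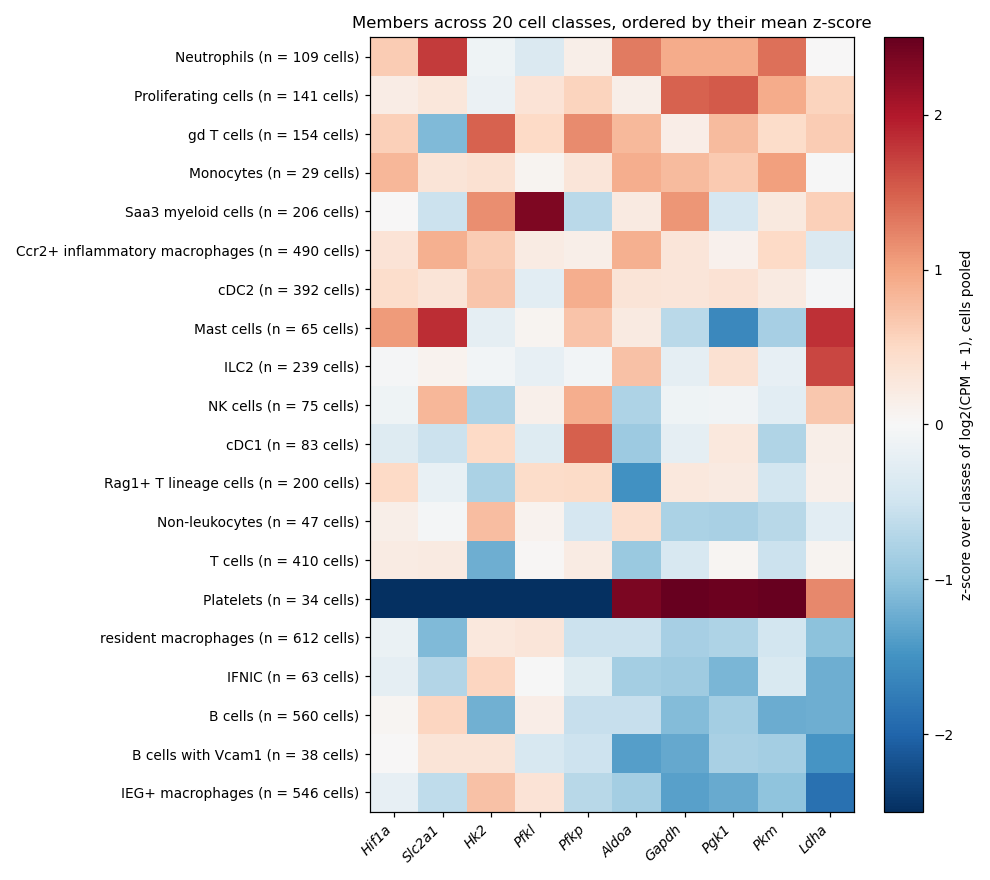
Heat map of the 10 members (columns) in 20 cell classes (rows, with the number of cells), coloured by the z-score over classes of log2(CPM + 1) with cells pooled. Rows are ordered by the mean z-score, from neutrophils (0.66) down to IEG+ macrophages (-0.68), and neutrophils have a low *Pfkl* level (11 CPM) while *Slc2a1* is high (85.8).

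The members did not follow 1 order of classes. Gamma delta T cells had the *Hk2* values of 150, 279, 192 and 244 CPM in mice 2, 7, 9 and 10. The same cells had *Slc2a1* at 0 to 11.6 CPM. Pooled *Slc2a1* was highest in mast cells at 95.9 CPM, followed by neutrophils at 85.8, where mice 3, 7 and 9 had 42.4, 96.6 and 121 CPM. A myeloid cluster led by *Prg4*, *Saa3* and *Serpinb2* had *Pfkl* at 121, 57.3 and 98.4 CPM in mice 5, 8 and 10, against 8.37 to 30.7 over the 10 mice in resident macrophages. It was the class with the highest pooled *Pfkl* level, 102 CPM. Pooled *Pfkp* was highest in conventional type 1 dendritic cells at 249 CPM, and pooled *Ldha* was highest in mast cells at 743 CPM, followed by ILC2 at 674.

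**Figure D2:**
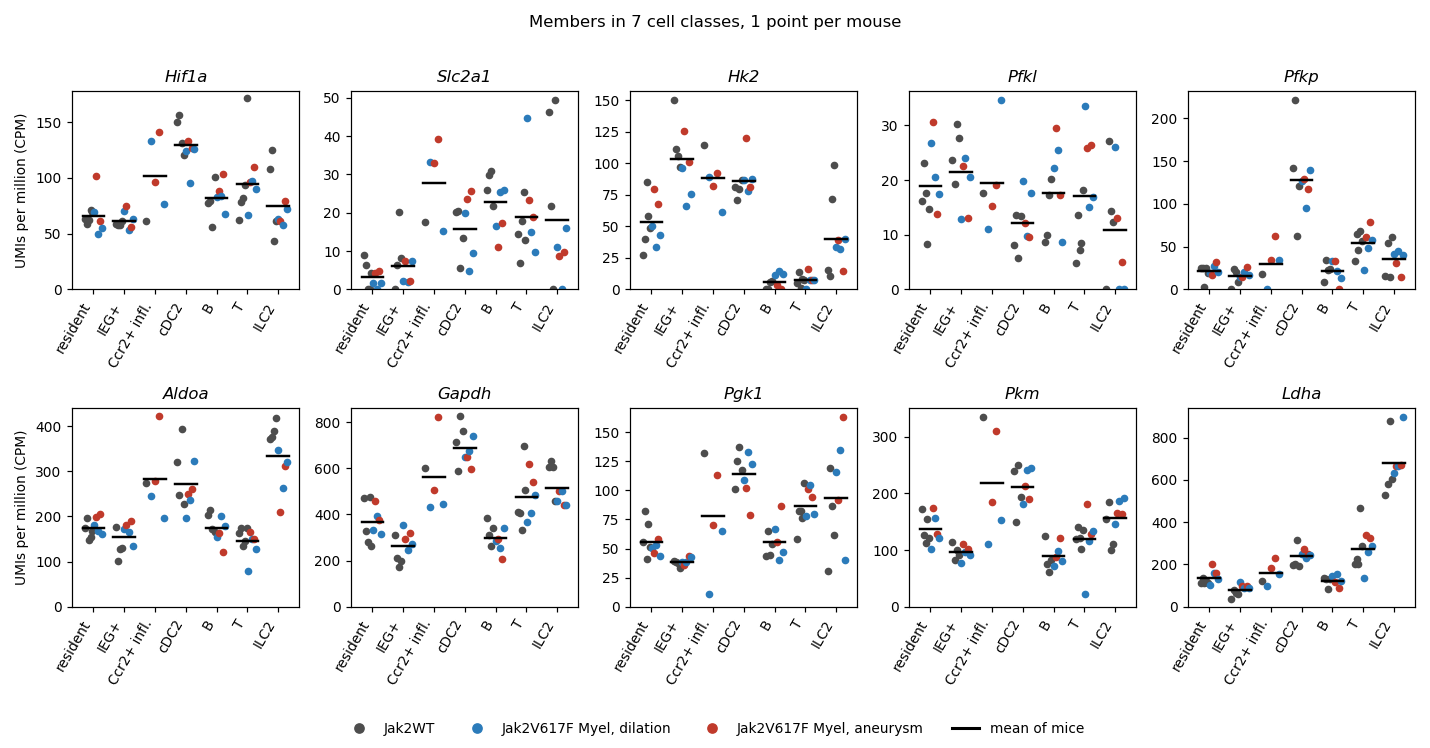
CPM of each member in 7 cell classes, with 1 point per mouse coloured by group and a bar at the mean of the mice; each panel has its own axis from 0. The mean of *Ldha* is highest in ILC2 (526 to 895 CPM), that of *Pfkp* in cDC2 (62.8 to 221) and that of *Slc2a1* in Ccr2+ inflammatory macrophages (15.4 to 39.3), although single mice reach 49.3 in ILC2 and 44.7 in T cells; the means of *Hk2* are lowest in B cells and T cells.

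The first comparison asked how macrophages with inflammatory genes differed from resident ones within the same mice. Only mice 2, 6, 7, 9 and 10 had the 10 or more inflammatory cells needed for a sum, and mice 7 and 9 gave 242 and 192 of the 474 cells. *Hif1a*, *Slc2a1*, *Hk2*, *Pfkp*, *Aldoa*, *Gapdh*, *Pgk1* and *Pkm* were higher in Ccr2+ inflammatory macrophages. *Pfkl* and *Ldha* did not pass the test. Thus 8 of 10 members were higher and 0 lower, where 12% of the 6357 genes tested were higher and 11.8% lower, and the members' median log2 fold change was 0.74 against -0.03 over all genes tested.

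*Slc2a1* was 17.6, 33.3, 33.0, 39.3 and 15.4 CPM in the inflammatory macrophages of mice 2, 6, 7, 9 and 10, resting on 2, 3, 99, 124 and 4 UMIs. In the resident macrophages of the same mice it was 6.31, 1.58, 4.18, 4.92 and 1.66 CPM. Each inflammatory value lay above each resident value, and *Slc2a1* was the only member with no overlap, where 5.58% of genes were higher with none (log2 fold change 3.08, SE 0.39, adjusted p = 6.31e-06). The resident values rested on 3, 1, 3, 5 and 2 UMIs, and the gene passed the filter on low counts only through the inflammatory sums. Its large fold change and lack of overlap are therefore not independent of that filter. In mice 3, 4 and 8 resident macrophages held 0 UMIs of *Slc2a1*, which allows up to 8.85, 12.6 and 4.42 CPM.

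*Aldoa* was 273, 244, 278, 423 and 196 CPM in the inflammatory macrophages and 198, 181, 199, 205 and 161 CPM in the resident macrophages of the same mice. It was higher in 5 of 5 mice, as were 9.55% of genes (log2 fold change 0.73, SE 0.16, adjusted p = 0.00226). *Gapdh* was 599, 433, 507, 822 and 445 CPM against 328, 331, 456, 376 and 313, again higher in 5 of 5 mice (0.77, SE 0.17, adjusted p = 0.00191). The largest *Aldoa* and *Gapdh* values were both those of mouse 9.

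*Hif1a* was 61.7, 133, 96.1, 141 and 76.8 CPM in inflammatory and 58.9, 69.4, 102, 61.0 and 55.5 CPM in resident macrophages (log2 fold change 0.71, SE 0.21, adjusted p = 0.0203). Mouse 7 went the other way on this scale. *Hk2* was 115, 88.8, 82.4, 92.7 and 61.4 CPM against 40.0, 50.4, 79.5, 67.9 and 43.0 (0.66, SE 0.20, adjusted p = 0.0231), higher in each of the 5 mice.

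At the lower end of the pathway, *Pgk1* was 132, 11.1, 70.1, 113 and 65.3 CPM in inflammatory macrophages, against 82.0, 50.4, 46.0, 58.1 and 43.9 in resident macrophages, and mouse 6 went the other way (log2 fold change 0.76, SE 0.23, adjusted p = 0.0202). *Pkm* was 335, 111, 185, 310 and 154 CPM against 126, 102, 174, 129 and 122 (0.83, SE 0.20, adjusted p = 0.00415), and the 2 classes were nearly level in mice 6 and 7. *Ldha* was 123, 100, 182, 229 and 154 CPM against 137, 102, 202, 157 and 132 (0.30, SE 0.17, adjusted p = 0.23), so it was lower in the inflammatory macrophages of mice 2, 6 and 7. The 2 phosphofructokinase genes had different results. *Pfkp* was 17.6, 0, 34.0, 62.8 and 34.5 CPM (0.87, SE 0.30, adjusted p = 0.0376), against 25.2, 18.9, 16.7, 32.5 and 19.9 in resident macrophages, so that it was higher in 3 of 5 mice and lower in mice 2 and 6, where 0 UMIs in mouse 6 allow up to 33.3 CPM. *Pfkl* was 17.6, 11.1, 15.3, 19.0 and 34.5 CPM (0.05, SE 0.34, adjusted p = 0.941).

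The count of members called depended on mouse 9. Without it, 3 members passed the test, and without mouse 7, 5 passed. These mice gave 192 and 242 of the 474 cells, so fewer cells and a smaller difference cannot be told apart in such counts. The share of all genes called in these fits is not given here. DESeq2 called 4 of the members, and against the resident cluster led by *Cd209d* and *Aqp1* alone 5 were called. The 12 genes of the dissociation and stress list moved the other way, with 7 lower and 1 higher in inflammatory macrophages, and their part in the result was not tested. RNA of other cells was also unequal. *Hbb-bs*, a haemoglobin gene of red cells, was 79.3, 55.5, 48.0, 2520 and 9230 CPM in the inflammatory macrophages of mice 2, 6, 7, 9 and 10, against 48.4, 47.3, 41.8, 50.2 and 1070 in their resident macrophages. *Cd79a* was 180 CPM in the inflammatory macrophages of mouse 10 and 0 to 17.6 in those of the other mice. Without mouse 10, 6 members passed.

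Of the genes outside the members, 1 of 11 other glycolysis genes tested was higher in inflammatory macrophages (*Pgam1*, phosphoglycerate mutase, log2 fold change 0.83) and none was lower by edgeR. Of 10 other hypoxia response genes tested, 4 were higher and 2 lower. *Ndrg1*, a stress-responsive gene induced by low oxygen, was higher by 2.93 (SE 0.35, adjusted p = 3.59e-06), *Hilpda*, whose protein blocks lipolysis at lipid droplets, by 2.43 (SE 0.26, adjusted p = 8.43e-07) and *Bhlhe40*, a transcriptional repressor, by 2.02 (SE 0.38, adjusted p = 0.000558), all on the log2 scale. *Ndrg1* passed the filter on low counts only through the inflammatory macrophages, where it was high. Of 4 HIF partners and regulators tested, 1 was higher, *Cited2*, whose protein competes with HIF-1 for a coactivator (0.80), and 1 lower, *Egln2*, an oxygen sensor that marks HIF-1 for decay (-0.75).

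The mice with aneurysm and the mice with dilation were then compared over all macrophages, which asks how the members differed with the severity of disease. Here the sum of a mouse mixes clusters, and Ccr2+ inflammatory cells were 66.5% and 49.4% of macrophages in mice 7 and 9 against 2.38% to 7.69% in the mice with dilation and 0% to 10.5% in Jak2WT mice. In such a sum, more cells of a kind and more RNA per cell cannot be told apart. Of the 10 members, 8 were higher in aneurysm and 0 lower, where 7.5% of the 9925 genes tested were higher and 4.87% lower. The same 8 members did not overlap between the groups, where 16.8% of genes were higher with no overlap. *Pfkp* and *Pfkl* did not pass the test.

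*Slc2a1* was 24.0 and 25.1 CPM in mice 7 and 9 with aneurysm, against 4.41, 3.55 and 5.82 CPM in mice 6, 8 and 10 with dilation. In Jak2WT mice 1 to 5 it was 5.93, 8.10, 11.7, 2.09 and 5.60 CPM. The aneurysm values lay above those of the other 8 mice (aneurysm against dilation, log2 fold change 2.41, SE 0.24, adjusted p = 0.000325). Pooled over mice, 244 UMIs in aneurysm and 27 in dilation gave a ratio of 5.03 (95% interval 3.37 to 7.79, which covers counting error only).

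*Hif1a* was 98.4 and 111 CPM in aneurysm and 73.5, 53.9 and 60.3 in dilation, with Jak2WT mice at 57.3, 63.0, 60.6, 64.8 and 67.2 CPM (log2 fold change 0.83, SE 0.14, adjusted p = 0.00407). *Aldoa* was 254 and 333 CPM against 178, 183 and 154, with 202, 164, 135, 136 and 162 in Jak2WT mice (0.86, SE 0.14, adjusted p = 0.00455). For both genes the 2 aneurysm mice were the highest of the 10. *Gapdh* was 484 and 634 CPM against 366, 411 and 307 (0.71, SE 0.15, adjusted p = 0.0132), but Jak2WT mice reached 474, close to the lower aneurysm value.

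*Ldha* was 180 and 192 CPM in aneurysm, 113, 154 and 119 in dilation and 102, 112, 101, 115 and 96.0 in Jak2WT mice (aneurysm against dilation, log2 fold change 0.62, SE 0.15, adjusted p = 0.023). The aneurysm mice were again the highest of the 10. For *Hk2*, *Pgk1* and *Pkm* they were not. *Hk2* was 86.3 and 86.2 CPM against 68.4, 47.5 and 60.3 (0.63, SE 0.14, adjusted p = 0.0175), with 59.3, 76.5, 106, 58.5 and 67.2 in Jak2WT mice, so that mouse 3 exceeded both. *Pgk1* was 61.0 and 90.8 CPM against 44.9, 58.2 and 45.4 (0.71, SE 0.18, adjusted p = 0.0301), and 3 of the 5 Jak2WT values, 69.3, 62.7 and 58.3, lay above the upper dilation value. *Pkm* was 180 and 238 CPM against 104, 172 and 113 (0.77, SE 0.20, adjusted p = 0.0365), with Jak2WT mice between 117 and 181.

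Neither phosphofructokinase gene passed the test, but only *Pfkl* had a negative log2 fold change. That of *Pfkp* was larger than those of all members called except *Slc2a1*, and its SE was larger too. *Pfkp* was 28.9 and 51.8 CPM in aneurysm and 16.9, 34.0 and 19.6 in dilation (log2 fold change 0.90, SE 0.30, adjusted p = 0.0833). *Pfkl* was 18.4 and 16.7 CPM in aneurysm and 19.1, 19.9 and 21.1 in dilation (-0.12, SE 0.18, adjusted p = 0.708). The *Pfkl* groups did not overlap, with aneurysm lower, as did 26.6% of all genes tested in that direction.

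**Figure D3:**
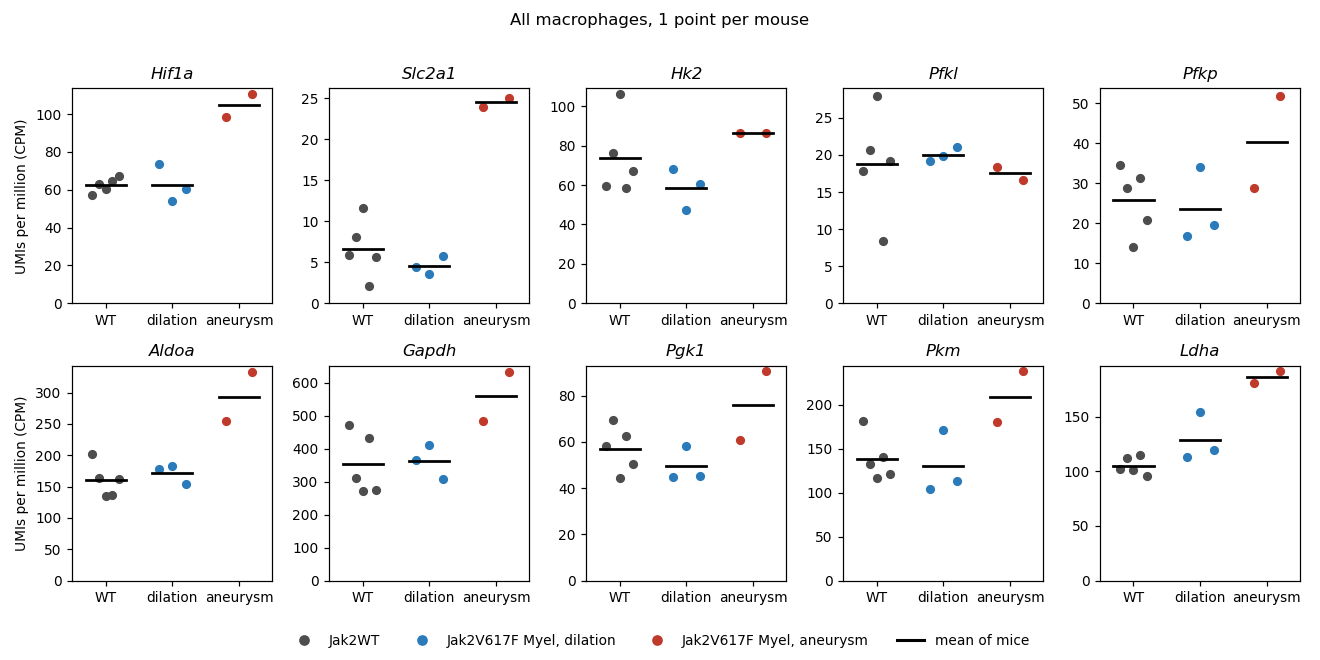
CPM of each member over all macrophages, with 1 point per mouse for Jak2WT (5 mice), Jak2V617F Myel with dilation (3) and with aneurysm (2), and a bar at each mean; each panel has its own axis from 0. *Slc2a1* in the aneurysm mice (24.0 and 25.1) stands clear of the others (2.09 to 11.7), whereas *Hk2*, *Pgk1* and *Pkm* overlap with Jak2WT.

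Values that moved with this comparison were the share of inflammatory cells above and the summed CPM of 12 dissociation and stress genes, 18800 and 17600 in aneurysm against 32300 to 34600 in dilation and 26300 to 36000 in Jak2WT mice. The summed CPM of 14 neutrophil markers over all macrophages was 258 and 439 in aneurysm, 79.2 to 109 in dilation and 43.9 to 92.0 in Jak2WT mice, with 1, 2 and 2 of the markers at 0, and its part in the result was not tested. *Hbb-bs* was high in mouse 9 with aneurysm (1720 CPM) and mouse 10 with dilation (1570) and 43.3 to 190 in the other 8 mice. Outside the Ccr2+ inflammatory clusters (an alternative chosen after seeing the data), 0 of the members passed edgeR's test between aneurysm and dilation. The share of all genes called in this fit is not given here, so the result does not show equal levels. Their log2 fold changes there were 0.46 for *Hif1a*, 0.52 for *Hk2*, 0.43 for *Pfkp*, 0.37 for *Ldha*, 0.35 for *Pkm*, 0.32 for *Aldoa*, 0.26 for *Gapdh*, 0.15 for *Pgk1* and -0.15 for *Pfkl*, and *Slc2a1* had too few UMIs to be tested. Without mouse 6 or mouse 10, 4 members passed over all macrophages. The share of all genes called in those fits is not given here. Leaving out a mouse with aneurysm leaves only 1, so no count is given for such fits.

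Among other hypoxia response genes over all macrophages, 5 of 12 tested were higher in aneurysm and 1 was lower. *Vegfa*, the growth factor of blood vessels, had 49.3 and 57.3 CPM in mice 7 and 9 and 0, 1.42 and 1.82 CPM in mice 6, 8 and 10. That was 533 UMIs against 7, a ratio of pooled CPM of 42.4 (95% interval 20.4 to 106, counting error only), with a fitted log2 fold change of 5.44 (SE 0.34, adjusted p = 4.56e-05). *Vegfa* passed the filter on low counts only through the mice with aneurysm, where it was high. *Ndrg1* had 26.5 and 42.1 CPM against 8.83, 4.26 and 6.54 (2.47, SE 0.30, adjusted p = 0.000781). *Bhlhe40* had 65.7 and 109 CPM against 17.7, 37.6 and 8.72 (2.27, SE 0.40, adjusted p = 0.0057). The remaining higher genes were *Hilpda* (1.78) and *Mxi1* (0.90), a MYC antagonist, and *Ddit4*, an inhibitor of mTORC1 that also leads one of the resident clusters, was lower (-1.09); these 3 were named after their values were seen.

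Of 19 other glycolysis genes tested, 3 were higher in aneurysm and none was lower by edgeR. These were *Slc16a3*, which exports lactate (log2 fold change 2.12, SE 0.32, adjusted p = 0.00263), *Slc2a6*, another sugar transporter of the glucose transporter family (1.70, SE 0.38, adjusted p = 0.019), and *Pgam1* (0.95, SE 0.17, adjusted p = 0.0057), named after their values were seen. None of the 7 HIF partners and regulators tested passed. The stress list had 10 of 12 genes lower, led by *Jun* (-1.34), *Hspa1b* (-1.29) and *Hspa1a* (-1.26).

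Within resident macrophages alone (367 cells of the 5 mutant mice), 0 of 9 members tested passed edgeR's test between aneurysm and dilation, where 0.0142% of the 7063 genes tested passed and 358 had an unadjusted p under 0.05. *Hk2* was 79.5 and 67.9 CPM in aneurysm and 50.4, 33.9 and 43.0 in dilation (log2 fold change 0.77, SE 0.22, adjusted p = 0.638). *Aldoa* was 199 and 205 CPM against 181, 168 and 161 (0.24, SE 0.16, adjusted p = 0.973). These groups did not overlap, as for 10.3% of genes that were higher, but neither difference passed. *Ldha* was 202 and 157 CPM against 102, 159 and 132 (0.43, SE 0.19, adjusted p = 0.946), and *Hif1a* was 102 and 61.0 against 69.4, 50.1 and 55.5 (0.45, SE 0.24, adjusted p = 0.973). The median log2 fold change over the 9 members was 0.24, against -0.01 over all genes tested. No gene of the other lists passed here.

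**Figure D4:**
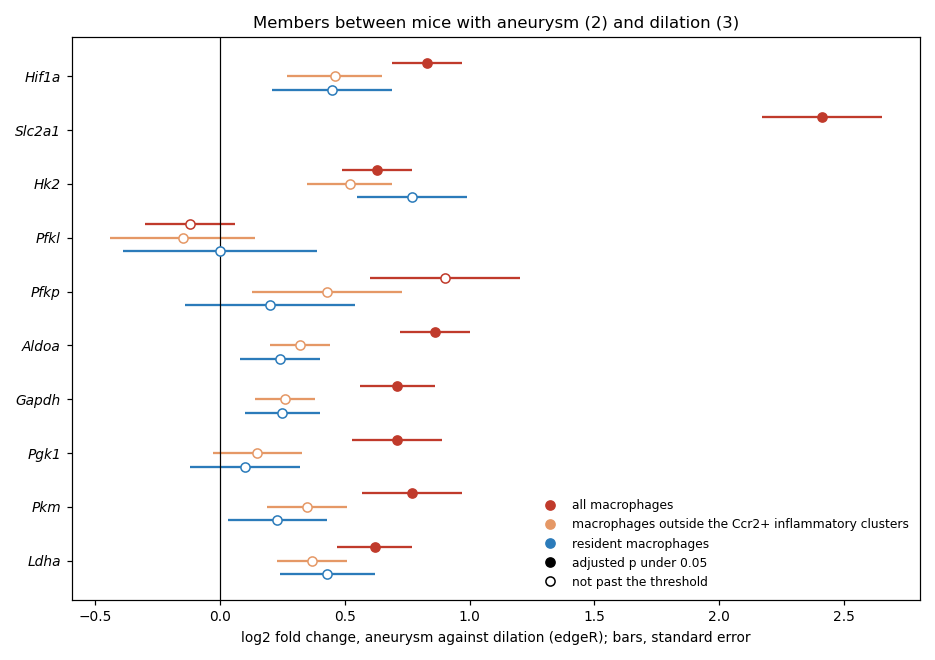
Log2 fold changes of the members between mice with aneurysm (2) and dilation (3) from edgeR, with bars of 1 standard error, for all macrophages, macrophages outside the inflammatory clusters and resident macrophages; filled points passed an adjusted p of 0.05. Filled points occur over all macrophages, for 8 members, and in neither of the other sets.

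IEG+ macrophages were compared with resident macrophages in 9 mice. Of 9 members tested, 1 was higher and 3 were lower, where 17.5% of 5728 genes were higher and 14.1% lower. *Hk2* was 66.4 to 150 CPM (median 101) in IEG+ and 27.1 to 85.5 in resident macrophages, and it was higher in the IEG+ macrophages of 9 of 9 mice, as were 5.24% of genes (log2 fold change 1.10, SE 0.15, adjusted p = 1.76e-05). *Ldha* was 35.5 to 118 CPM in IEG+ and 102 to 202 in resident macrophages and lower in 8 of 9 mice (-0.57, SE 0.11, adjusted p = 0.000743). *Pkm* (-0.31, SE 0.08, adjusted p = 0.00867) and *Gapdh* (-0.26, SE 0.08, adjusted p = 0.0223) were lower too. The ranges overlapped for all 4.

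The 3 lower calls depended on which resident cells were the reference. Against the resident cluster led by *Txnip* and *Ddit4* alone, *Pkm* was at 0.01 (adjusted p = 0.957), *Gapdh* at 0.00 (0.986) and *Ldha* at -0.24 (0.239), and 1 member, *Hk2*, passed. The 2 resident clusters themselves differed in these genes as a description: mean *Ldha* was 154 CPM in the *Cd209d* and *Aqp1* cluster (8 mice) and 104 in the *Txnip* and *Ddit4* cluster (10 mice), mean *Pkm* 154 and 113, and mean *Gapdh* 395 and 319. The stress genes were part of the clustering that set IEG+ macrophages apart, and 11 of 12 were higher there, which is no finding. Of the other lists in IEG+ macrophages, 1 of 11 glycolysis genes was higher (*Pfkfb3*, which makes the activator of phosphofructokinase, 0.81) and 5 lower, *Hilpda* (1.31) and *Cited2* (1.00), were higher, and the largest falls were of *Eno1*, enolase (-0.76), *Ddit4* (-0.66) and *Mpc2*, of the mitochondrial pyruvate carrier (-0.48).

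Dendritic cells of type 2 differed from resident macrophages in each of the 8 members that could be tested, and each of the 8 was higher in 9 of 9 mice. *Slc2a1* and *Pfkl* had too few UMIs to be tested. The background was high, since 24.9% of the 6027 genes tested were higher and 28.6% were lower in this comparison, and 10.8% were higher in each of the mice. *Pfkp* was 62.8 to 221 CPM (median 126) in cDC2 and 16.7 to 32.5 in resident macrophages, with no overlap, where 6.69% of genes were higher with none (log2 fold change 2.66, SE 0.17, adjusted p = 4.27e-10). *Gapdh* was 588 to 827 CPM against 264 to 477, with no overlap (1.09, SE 0.12, adjusted p = 2.75e-07). *Hif1a* (1.17), *Pgk1* (1.23), *Hk2* (1.00), *Ldha* (1.00), *Pkm* (0.81) and *Aldoa* (0.78) were higher with overlap between the extreme mice.

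*Slc2a1* in cDC2 was 4.85 to 25.6 CPM (mean 15.9) and *Pfkl* was 5.71 to 19.8 CPM (mean 12.2), against means of 3.57 and 19.1 CPM in resident macrophages of the same mice. *Slc2a1* was higher in cDC2 in 9 of 9 mice, and *Pfkl* in only 1 of 9. The 8 calls in cDC2 stood in each fit that left out 1 mouse. Of 12 other glycolysis genes tested, 5 were higher and 2 lower, with *Slc2a6* at 3.73 and *Hk3*, another hexokinase, at -1.53 on the log2 scale. Of 10 other hypoxia response genes 4 were higher, among them *Bhlhe40* (4.60) and *Hilpda* (2.70), and 4 were lower, among them *Bnip3*, a gene of mitochondrial clearance (-1.22). *Slc2a6* and *Bhlhe40* passed the filter on low counts only through cDC2, where they were high. The HIF partners and regulators had 3 of 4 genes tested lower, among them *Cited2* (-1.30), and none higher. The members tested thus shared 1 direction in these cells, but *Pfkl*, which was not tested, leaned the other way. The other glycolysis and hypoxia response genes tested went both ways.

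Lymphocytes were compared with resident macrophages in the same way. In B cells, 1 of 8 members tested was higher and 2 were lower, where 32.3% of 5705 genes were higher and 36.5% lower. *Hk2* was 0 to 14.6 CPM in B cells (median 5.78) and 27.1 to 85.5 in resident macrophages, with no overlap, where 23.4% of genes were lower with none (log2 fold change -2.56, SE 0.30, adjusted p = 2.3e-08). In T cells it was 0 to 16.4 CPM, also with no overlap, as for 23.9% of genes (-2.67, SE 0.29, adjusted p = 9.36e-09). *Hk2* was thus lower in both, and 0 UMIs in B cells of mice 1, 2 and 9 allow up to 13, 15 and 51.9 CPM. In both comparisons *Hk2* passed the filter on low counts only through resident macrophages, where it was high. In B cells *Pkm* was lower (-0.45, SE 0.12, adjusted p = 0.00217) and *Hif1a* higher (0.49, SE 0.14, adjusted p = 0.00395), and the *Hif1a* call was lost without mouse 5 (0.33, adjusted p = 0.0716).

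In T cells, 5 of 8 members tested were higher than in resident macrophages and *Hk2* alone was lower, where 35% of 4923 genes were higher and 37.1% lower. *Ldha* was 134 to 468 CPM in T cells and 102 to 202 in resident macrophages (log2 fold change 1.18, SE 0.12, adjusted p = 1.61e-09). *Pfkp* was 22.4 to 79.3 CPM against 2.95 to 32.5 (1.57, SE 0.20, adjusted p = 1.68e-07). The ranges of both genes overlapped. *Pgk1* (0.91), *Hif1a* (0.75) and *Gapdh* (0.58) were higher, and *Pkm* (0.08, SE 0.13) and *Aldoa* (-0.03, SE 0.11) did not pass. The 6 calls stood in each fit that left out 1 mouse.

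In ILC2, 6 of 7 members tested were higher and 0 lower, where 31.3% of 3894 genes were higher and 35.9% lower. *Ldha* was 526, 582, 879, 604, 634, 664, 667, 672 and 895 CPM in mice 1, 2, 3, 5, 6, 7, 8, 9 and 10, with the resident macrophages of the same mice at 102 to 202 CPM. Each ILC2 value lay above each resident value, where 10.7% of genes were higher with no overlap (log2 fold change 2.62, SE 0.13, adjusted p = 8.18e-18). *Aldoa* was 210 to 419 CPM (median 347) against 147 to 205, with no overlap (1.17, SE 0.13, adjusted p = 4e-09). *Pgk1* (1.19), *Gapdh* (0.83), *Pkm* (0.57) and *Hif1a* (0.47, SE 0.20, adjusted p = 0.0355) were higher with overlap, and *Hk2* did not pass (-0.29, SE 0.27). The *Hif1a* call was lost without mouse 1, 2, 3, 8, 9 or 10 and under DESeq2 (0.29, adjusted p = 0.287), and the *Pkm* call was lost with no filter on low counts (0.24, adjusted p = 0.262).

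Of 8 other hypoxia response genes tested in ILC2, 3 were higher than in resident macrophages and 1 was lower. *Hilpda* had a mean of 824 CPM in ILC2 and 24.8 in resident macrophages (log2 fold change 5.40, SE 0.18, adjusted p = 7.2e-22), *Bhlhe40* 394 and 14.8 (5.03, SE 0.19, adjusted p = 3.79e-20) and *Ero1l*, an oxidase of the endoplasmic reticulum, 108 and 15.4 (3.09, SE 0.22, adjusted p = 1.88e-13). Each of these 3 passed the filter on low counts only through ILC2, where it was high. The lower gene was *P4ha1*, of collagen prolyl hydroxylase (-2.67, SE 0.35, adjusted p = 6.48e-08). *Pfkfb3* (-1.58) and *Egln2* (-1.39), were lower as well. In B cells and T cells *Hilpda* was higher by 1.89 and 1.66, and *Pfkfb3* was lower (-2.26 and -1.73). *Hk3* (-4.44) and *Cited2* (-3.39) were lower in B cells too. Whether these lowered genes, *P4ha1* among them, passed the filter on low counts only through resident macrophages is not given here. Their large falls may therefore not be independent of that filter.

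Counted by list, 1 of 9 other glycolysis genes tested was higher and 3 were lower in B cells, 2 of 9 were higher and 2 lower in T cells, and 3 of 8 were higher and 3 lower in ILC2. Of the other hypoxia response genes, 2 of 8 were higher and 3 lower in B cells, and 3 of 7 were higher and 2 lower in T cells. Of 4 HIF partners and regulators tested, 1 was higher in each of these classes, with 1 lower in B cells, 3 in T cells and 3 in ILC2. The dissociation and stress genes, which took part in the clustering, were lower than in resident macrophages for 12 of 12 genes in B cells, 11 of 12 in T cells, 12 of 12 in ILC2 and 7 of 12 in cDC2, where 1 was higher, and their part in these results was not tested.

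Between genotypes, Jak2V617F Myel mice were compared with Jak2WT mice within 6 classes. Ccr2+ inflammatory macrophages were not compared, since only 1 Jak2WT mouse had the cells needed for a sum. The sum of all macrophages was not compared between genotypes either. No member passed edgeR's test in resident macrophages, where 0.898% of 6458 genes passed, in IEG+ macrophages (0.503% of 5363) or in cDC2 (0.0457% of 4378). In B cells, T cells and ILC2 no gene (0%) passed at all, with 143, 233 and 116 genes at an unadjusted p under 0.05. The same held for the members in 145 fits of 8 comparisons, which were these 6 under each alternative, the aneurysm comparison within resident macrophages and the interaction below. With 4 or 5 mice a group and standard errors of 0.12 to 0.37 on the log2 scale among the members tested, small differences were not detectable, and a result that missed the threshold does not show equal levels.

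*Ldha* came nearest the threshold in IEG+ macrophages. It was 118, 99.5, 86.7, 96.6 and 89.0 CPM in mutant mice 6 to 10 and 35.5, 76.9, 63.1 and 58.2 CPM in Jak2WT mice 1, 2, 3 and 5, with no overlap (log2 fold change 0.61, SE 0.19, adjusted p = 0.154). In this class 3.43% of genes were higher in the mutants with no overlap. In resident macrophages *Ldha* was 102, 202, 159, 157 and 132 CPM in mice 6 to 10 and 112, 137, 112, 121 and 114 CPM in mice 1 to 5, with overlap (0.35, SE 0.16, adjusted p = 0.365). In T cells, which should not carry the mutation, it differed by -0.02 (SE 0.21) and in B cells by 0.13 (SE 0.20). The difference of its log2 fold changes between resident macrophages and T cells did not pass edgeR's interaction test (0.41, SE 0.22, adjusted p = 0.651).

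None of the other members tested passed in resident macrophages. *Pfkl*, at 21.9 ± 6.87 CPM (SD, n = 5) in Jak2V617F Myel and 16.0 ± 5.33 (n = 5) in Jak2WT mice, had a log2 fold change of 0.36 (SE 0.30, adjusted p = 0.711), slightly above that of *Ldha*. *Pfkp* was 23.2 ± 6.71 against 19.6 ± 9.64 CPM (0.24, SE 0.32) and *Hk2* 54.9 ± 18.5 against 52.0 ± 22.0 (0.17, SE 0.27). *Hif1a* was 67.5 ± 20.4 CPM (SD, n = 5) in Jak2V617F Myel and 64.9 ± 5.15 (n = 5) in Jak2WT mice, and the SD of the mutants rested on mouse 7 at 102 CPM. *Gapdh* was 374 ± 56.4 against 364 ± 103, *Pkm* 137 ± 28.8 against 138 ± 25.7 and *Aldoa* 183 ± 18.9 against 168 ± 19.4. *Pgk1* leaned the other way, 50.3 ± 5.64 against 60.4 ± 16.2, and the ranges of the mice overlapped for each of these genes. In ILC2 *Aldoa* was 347, 210, 263, 311 and 320 CPM in mutant mice and 371, 375, 389 and 419 in Jak2WT mice, lower with no overlap (log2 fold change -0.45, SE 0.20, adjusted p = 0.774), where 0.802% of genes were lower with no overlap.

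**Figure D5:**
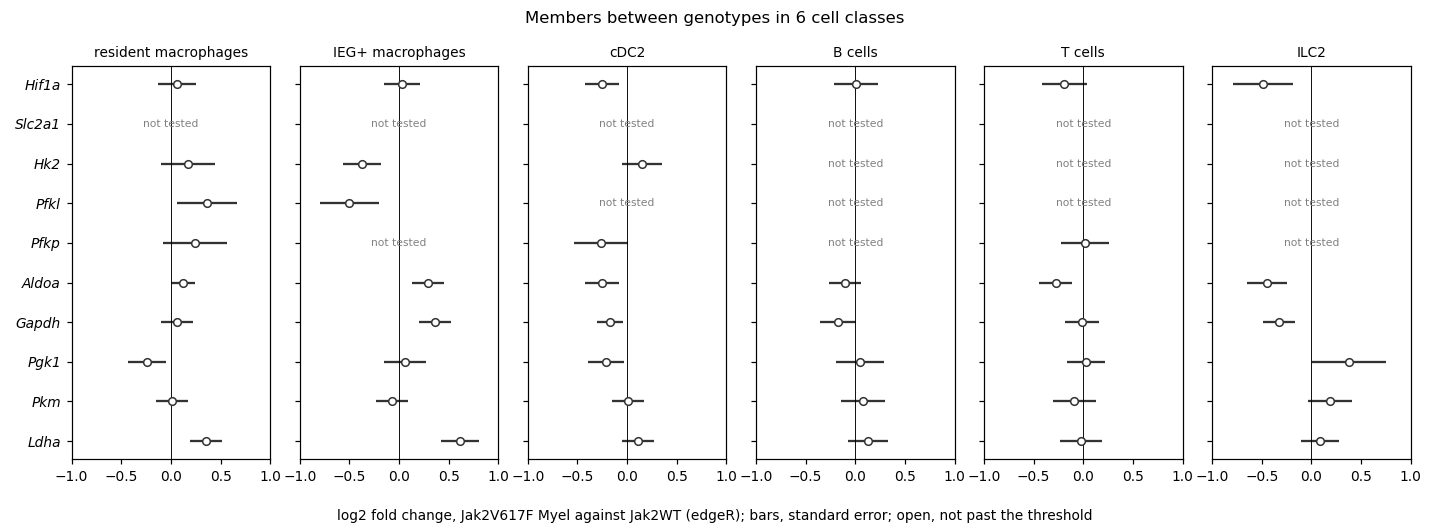
Log2 fold changes of the members between Jak2V617F Myel and Jak2WT mice from edgeR in 6 cell classes, with bars of 1 standard error and open points for results that did not pass an adjusted p of 0.05. All points are open, and *Ldha* in IEG+ macrophages (0.61) lies farthest to the right.

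Whether the genotype difference itself differed between resident macrophages and T cells was tested as an interaction. Of 9 members tested none passed edgeR's test, where 0.26% of 6163 genes passed. *Aldoa* had the smallest p among them, with a difference of log2 fold changes of 0.46 (SE 0.22, adjusted p = 0.603). Of the 3 other metabolic and hypoxia lists, no gene passed between genotypes in any of the 6 classes. In the stress list, 3 of 12 genes were lower in mutant IEG+ macrophages, *Ier2* (-0.72), *Dnajb1* (-0.71) and *Egr1* (-0.48), and in the interaction 3 of 12 passed, *Hspa1b* (1.76), *Jun* (1.40) and *Hsp90aa1* (1.27).

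Over the 20 classes, the genes outside all lists whose pooled levels went most like the members' mean z-score were *Fxyd5* (Pearson r = 0.79), *Txnl1* (0.78), *Dctn3* (0.77), *Dock5* (0.75) and *Txn1*, thioredoxin (0.73), of 10225 genes compared. The classes share 1 pool of libraries and differ in depth, so these are descriptions with no test. *Fxyd5* had 2180 CPM in neutrophils and 469 in resident macrophages, and *Txn1* had 1290 and 259.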

How the data were processed

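Aortic leukocytes of 10 mice were hashed, pooled and sequenced in 1 run. The authors made UMI counts with Cell Ranger 6.0.2 on mouse mm10 and deposited 1 matrix of raw counts. Here hashtags were assigned with HTODemux (Seurat 5.3.0). Cells with more than 1 hashtag, none, or over 10% mitochondrial UMIs were removed, and doublets within a mouse were not sought. Clustering left out the members, 21 other glycolysis genes, 9 HIF partners and regulators and 17 other hypoxia response genes, but not 12 dissociation and stress genes.

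Counts were summed per mouse and class with at least 10 cells. edgeR 4.0.16 (TMM, filterByExpr, quasi-likelihood test, two-sided, Benjamini-Hochberg over all genes, threshold 0.05) gave log2 fold changes, which are scaled, while the CPM printed are not. Standard errors (SE) are the log2 fold change divided by the square root of F. Comparisons between classes had the mouse as a block, since classes come from the same animals. DESeq2 1.42.0, RLE scaling, no filter, 20 cells per sum, 5% mitochondrial UMIs, clustering with the listed genes and leaving out each mouse were alternatives. Single resident clusters, pooled T and B clusters and macrophages outside inflammatory clusters were chosen after seeing the data. Some of the comparisons were also fitted to simulated counts, with changes set only in genes above the median level. The outcome is not given here, and it would not cover changes in genes with fewer UMIs.

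The members and lists were chosen with earlier results of these data known. At most 3 higher and 3 lower genes of the other lists were named per comparison by fold change, a few others after their values were seen, and 5 by likeness.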

Additional observations from a re-analysis of the deposited data

Results flagged for a closer look

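Within groups of 4 to 10 mice, 98 sets of member values were examined for 1 mouse far from the others, and 8 were found. Chance alone gives about 1 in 20 groups. In resident macrophages, *Pfkp* was 2.95 CPM in Jak2WT mouse 3, where the other Jak2WT mice had 19.2 to 25.3. In cDC2, *Hif1a* was 95.5 CPM in mutant mouse 8 (others 124 to 133), *Hk2* was 120 CPM in mutant mouse 7 (others 77.7 to 87.4) and *Ldha* was 314 CPM in Jak2WT mouse 4 (others 191 to 204). In B cells, *Ldha* was 84.7 CPM in Jak2WT mouse 3 (others 130 to 134). In T cells, *Hif1a* was 172 CPM in Jak2WT mouse 5 (others 62.6 to 93.6). In ILC2, *Gapdh* was 456 CPM in Jak2WT mouse 5 (others 603 to 631) and *Ldha* was 895 CPM in mutant mouse 10 (others 634 to 672). The 8 values were spread over 6 mice, and the cause was not tested.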

How the results depend on the processing

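Of the results of single genes under an alternative, 677 stayed the same, 62 were weaker and 1 was reversed. In 8 comparisons no member passed in any of 145 fits. In their main fits at most 0.898% of all genes tested passed, so counts that stayed at 0 there say little about stability. Of 263 counts of members called under an alternative, with those counts of 0 among them, 253 stayed within 1.5 times the main count. The others were over all macrophages, where 8 members called between aneurysm and dilation became 0 outside the inflammatory clusters and 3 to 7 when 1 mouse was left out, and between inflammatory and resident macrophages, where 8 became 4 under DESeq2, 5 against the *Cd209d* and *Aqp1* resident cluster alone and 3 to 8 without 1 mouse. In IEG+ macrophages 4 became 1 against the *Txnip* and *Ddit4* cluster alone, where the *Pkm* log2 fold change turned from -0.31 to 0.01, and in B cells 3 became 1 against the *Cd209d* and *Aqp1* cluster alone. Leaving out 1 mouse gave 3 to 4 calls in IEG+ macrophages, 8 in cDC2, 2 to 4 in B cells, 6 in T cells and 5 to 6 in ILC2; in each comparison between genotypes it gave 0. The cause was not tested. Without the mouse as a replicate block, 8 members were called in inflammatory macrophages, 3 in IEG+ macrophages, 8 in cDC2, 3 in B cells, 6 in T cells, 6 in ILC2 and 0 in the interaction, and of single calls only *Gapdh* in IEG+ macrophages was lost (adjusted p = 0.135). RLE scaling moved the median log2 fold change of all genes from -0.05 to -0.16 in B cells, from 0 to -0.13 in T cells and from -0.05 to -0.25 in ILC2. Depth limited *Slc2a1* and *Pfkl* most, which were left untested in several classes, and the severity groups of 2 and 3 mice limited the aneurysm comparisons.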
